A study of Canis lupus familiaris with 124 samples.

Results

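TCC1509, a canine cell line grown from a transitional cell carcinoma (TCC) of the prostate, was nearly silent for 72 genes that every other cell line of the series expressed. The genes were chosen on the cell lines' own values: a level under 1 CPM in TCC1509 and of 10 CPM or more in each of the other 7 lines, where CPM is a gene's share of all counted reads scaled to a fixed total. Of 32183 genes, 7174 reached 10 CPM in all 7 other lines, and 73 of these were under 1 CPM in TCC1509. CLDN7 was left out by name, which gave the 72 members. Because the cell-line values made the choice, they are described here without a test, and the tests rest on tissues alone. A symbol could be given to 8 members (MAL2, HOOK1, CDC42BPG, IQGAP2, ARFGEF3, TNK1, RGS19 and PRDX4), and 64 are known only by an Ensembl identifier. All 8 symbols come from gene lists that the study drew up partly on these same lines, so the naming is not a random draw of the members.

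RNA was sequenced from 8 cell lines and 9 tumor tissues of dogs. A further line of the study, Adcarc1258, is not among these samples, so its levels of the members were not examined. The paper describes Adcarc1258 and TCC1509 as its lines with the most mesenchymal features and the highest invasive potential. The lines were Adcarc0846 (patient 2, 6 years old), Adcarc1508 (patient 3, 11 years) and Adcarc1511.1 (patient 4, 6 years) from prostate adenocarcinoma (PAC), Metadcarc1511.2 and Metadcarc1511.3 from 2 metastases of patient 4, and TCC0840 (patient 5, 10 years), TCC1506 (patient 7, 10 years) and TCC1509 (patient 6, 9 years) from TCC. The tissues were P6.1, from which TCC1509 was established, and Ln6.2, a TCC metastasis in a lymph node of the same dog; the TCCs B7 (patient 7), B8 (patient 8, 11 years), B9 (patient 9, 8 years) and B10 (patient 10, 8 years) of the bladder; and P2 (patient 2), Ln4.2 and Ln4.3 (both patient 4), a PAC and 2 PAC metastases. The labels give no treatment for any dog, every line is a single isolate of 1 tumor, and no line was made from Ln6.2. Each line had 2 or 3 libraries from flasks of that same line, mostly at different passages, and each tissue had 1 library. The spread between libraries of a line thus holds technical and passage differences only. Passages ran from 68 in Metadcarc1511.2 to 448 in Adcarc0846. RNA of cells and tissues was extracted with different kits. The summed counts ran from 33500674 to 55488800 per line and from 11920463 to 18086895 per tissue.

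Polarized epithelial cells keep an apical and a basolateral surface by directed vesicle traffic, by cortical actin under control of small GTPases, and by cell junctions. Of the named members, MAL2 and HOOK1 act in traffic, CDC42BPG, IQGAP2 and ARFGEF3 are tied to small GTPases, TNK1 and RGS19 relay or dampen signals, and PRDX4 handles peroxide in the endoplasmic reticulum. The 8 named genes share no single process, and no theme can be given for the 64 without a symbol. In a bulk tissue sample, fewer cells of a type and less RNA per cell cannot be told apart.

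In TCC1509 the members had a median of 0.125 CPM and a maximum of 0.943 CPM, and 22 of them had 3 or fewer counts among 51976428. Just 1 member had no count at all, so "silent" stands here for a trace level and not for a zero. The separate libraries, which made up the sum that chose the genes, were alike. In them 70 of 72 members were under 1 CPM at passage 77, and 71 in each of the 2 libraries at passage 85. When every library of every line had to meet the limits, 48 members remained. Across the other 7 lines the members' medians lay between 16.4 and 385 CPM, with a middle value of 51.3 CPM. In the 19 libraries of those lines no member fell under 1 CPM, and the lowest single value was 5.45 CPM.

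The members were not uniformly expressed among the 7 lines. The highest line exceeded the lowest by a median of 3.22 times, and by more than 10 times for 7 members. TCC1506, the other TCC line with 3 libraries, was the lowest of the 7 for 26 members and the highest for 16. Genes next to the limits differed little from those inside. In TCC1509 the last members inside lay at 0.813, 0.943 and 0.943 CPM, and the first genes outside at 1.0 (WWC1), 1.14 and 1.17 CPM. On the other limit, the lowest of the 7 lines was at 10.02 (RGS19), 10.7 and 10.8 CPM for the nearest members and at 9.81, 9.88 and 9.95 CPM for the nearest genes outside.

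**Figure D1:**
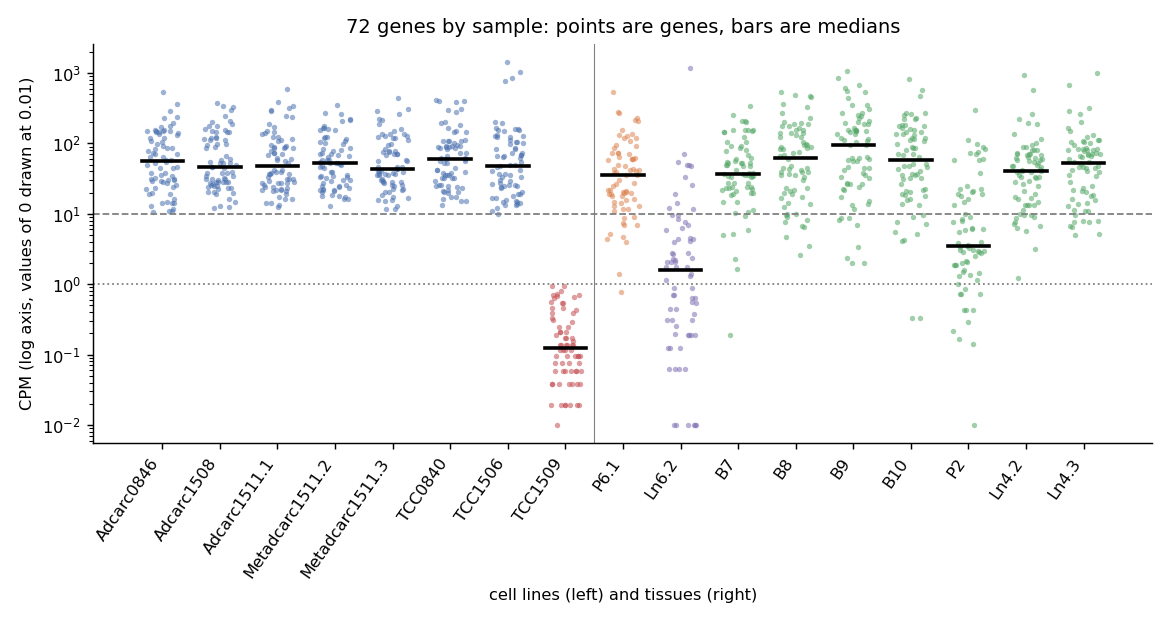
CPM of each of the 72 members (points, log axis) in the 8 cell lines and 9 tissues, with the median of the members as a bar; dashed and dotted lines mark 10 and 1 CPM. The medians of the other 7 lines and of 7 tissues lie above 30 CPM, that of TCC1509 at 0.125 CPM, and those of Ln6.2 and P2 at 1.57 and 3.54 CPM.

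The tumor that gave rise to TCC1509 expressed the members. In P6.1, 61 of the 72 were at 10 CPM or more, beside 94.7% of the 7174 genes high in the other 7 lines, and 71 were at 1 CPM or more, with a median of 35.3 CPM. The gene that was under 1 CPM had 14 counts there (0.774 CPM). P6.1 exceeded TCC1509 by a median of 306 times when TCC1509 was taken at no less than 3 counts, and by 10 times or more for 68 members. The rule held TCC1509 under 1 CPM, so any tissue that expressed the genes would give large ratios, and these are a description only. Against the lines that kept the genes, P6.1 lay within their range for 37 members and under all 7 for 31. The same shares over the 7174 genes high in the other 7 lines were not computed. The rule also held those lines at 10 CPM or more, so these counts are a description only and show no loss particular to the members.

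The metastasis of the same dog was different. In Ln6.2, 33 of the 72 members were under 1 CPM, and the median was 1.57 CPM. Of the 7174 genes high in the other 7 lines, 0.725% were under 1 CPM in Ln6.2, which is 52 genes, and the 33 members made up 63.5% of these and 45.8% of the 72. For P6.1 the same background was 0.0279%, with 1 member under 1 CPM. In Ln6.2 12 members reached 10 CPM, beside 91.5% of the 7174 genes. Of the 33 members under 1 CPM in Ln6.2, 30 were at 10 CPM or more in P6.1, and 22 were so in all 7 tissues other than Ln6.2 and P2. Ln6.2 had 6 members with no count, which allows up to 0.188 CPM each in a library of 15919870 counts.

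Ln6.2 was not the only tissue with low values. P2, a prostate adenocarcinoma of another dog, had 12 members under 1 CPM against a background of 0.39%, and 23 at 10 CPM or more against 92.3%. Its median was 3.54 CPM. In the remaining 6 tissues the median lay between 37.2 CPM (B7) and 95.02 CPM (B9), and 61 to 65 members reached 10 CPM. The background for the latter was 98% in B7, 96.8% in B8, 97.4% in B9, 95.1% in B10, 97.4% in Ln4.2 and 97.4% in Ln4.3. Under 1 CPM there were 2 members in B10 (background 0.0418%), 1 in B7 (0.0279%) and 0 in B8 and B9 (0.0139% each) and in Ln4.2 and Ln4.3 (0.0279% each). The shortfall was thus concentrated in Ln6.2 and P2. P2 was the lowest of the 7 tissues of other dogs for 55 members, beside 23.6% of all genes tested and 33.8% of the genes high in the other 7 lines. Both Ln6.2 and P2 lay below the other 7 tissues for 51 members, beside 12.5% and 17.8%. There were 11 members under 1 CPM in both Ln6.2 and P2, beside 0.223% of the genes high in the other 7 lines, and 49 under 10 CPM in both, beside 5.83%. For 62 of 72 members Ln6.2 was lower than P2, beside 52.7% of those genes, and the median ratio of Ln6.2 to P2 was 0.329 over the 71 members above 0 in P2. The rule itself set that, among these lines, only TCC1509 had the genes at trace level. Low values of many members were also seen in the tissues Ln6.2 and P2. Adcarc0846, the line established from P2, held all 72 at 10 CPM or more by the rule, with a median of 55.8 CPM.

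**Figure D2:**
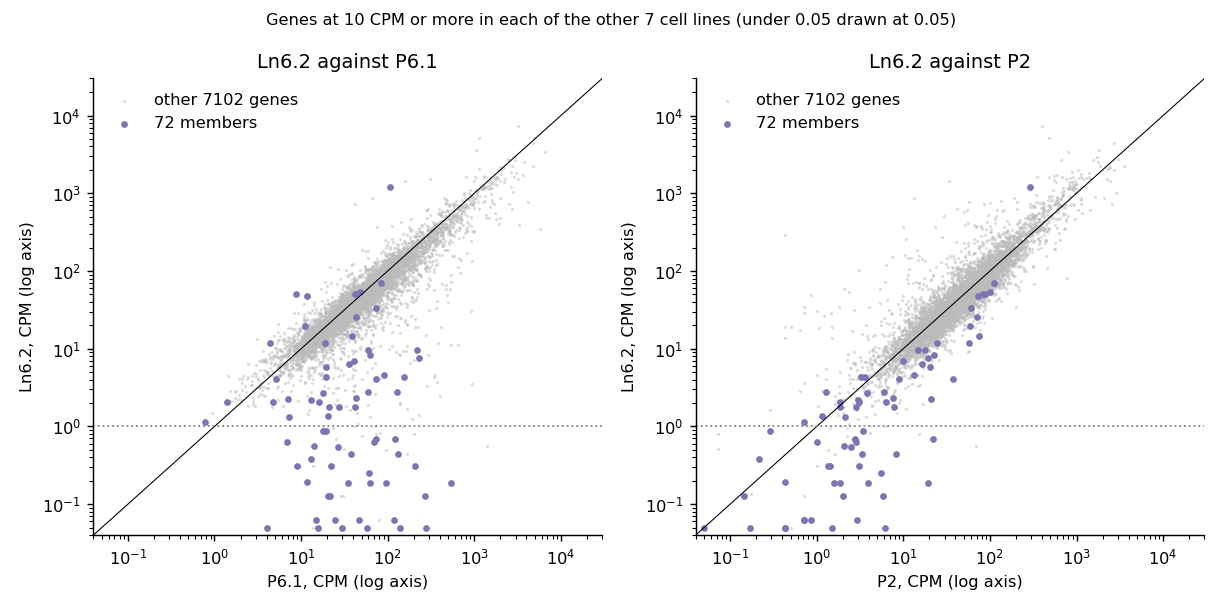
CPM in Ln6.2 against P6.1 (left) and P2 (right) for the genes at 10 CPM or more in each of the other 7 cell lines, on log axes, with the 72 members in purple and equal values on the diagonal. Below the diagonal lie 63 of 72 members against P6.1, beside 66.1% of all the plotted genes, and 62 against P2, beside 52.7%.

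Ln6.2 was then compared with the 7 tissues of other dogs, values the choice of genes had not used. All 72 members passed the filter of a mean of 1 CPM over the 9 tissues. Ln6.2 lay below each of the 7 tissues for 52 members and above each of them for 1, against backgrounds of 17.4% and 8.99% of the 14223 genes tested, or 22.6% and 6.66% of the genes high in the other 7 lines. The median log2 fold change of the members was −4.79, beside −0.18 over all genes tested and −0.20 over the genes high in the other 7 lines. It was negative for 70 of 72 members, and for 59.5% of all genes. Over the 54 members with more than 3 counts in Ln6.2 the lowest fold change was −9.24.

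No member passed an adjusted p of 0.05 in edgeR's quasi-likelihood test with Benjamini-Hochberg adjustment, as no gene of all 14223 did (0%). The smallest adjusted p of a member was 0.505. At an unadjusted p under 0.05, 47 members were lower and 0 higher, beside 1.98% and 2.66% of all genes and 1.99% lower of the genes high in the other 7 lines. DESeq2's Wald test called 40 members lower and 0 higher at an adjusted p of at most 0.05, beside 1.43% and 0.485% of all genes and 1.31% lower of the genes high in the other 7 lines. Of these 40, 30 were among the members under 1 CPM in Ln6.2, 10 among those from 1 to 10 CPM and 0 among those at 10 CPM or more. The Ln6.2 value sets the group and also enters the call, so this order was largely fixed in advance. Both tests take the spread from the 7 other tissues, which span TCC, PAC and PAC metastasis, and assume that the lone Ln6.2 sample varies like them. Whether Ln6.2 was lower beyond the spread between tissues thus depended on the test.

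P6.1 lay close to the other tissues by the same measures. The median log2 fold change of the members was −0.68, beside −0.20 over all genes, and 56 of 72 were negative, beside 61.5% of all genes. P6.1 was below all 7 tissues for 5 members and above them for 1, beside 10.7% and 7.99% of all genes. No member was called by edgeR (0 of all genes) or by DESeq2 (0.0703% of all genes lower and 0.155% higher). At an unadjusted p under 0.05 in edgeR 1 member was lower and 0 higher, beside 1.08% and 2.14% of all genes. With P6.1 and Ln6.2 taken as 1 group against the other 7, edgeR called 0 members, and 4 were lower at an unadjusted p under 0.05, beside 2.95% of all genes. Between the tissues of patient 6 themselves, Ln6.2 was at least 2-fold lower for 59 members and at least 2-fold higher for 4, against 11.2% and 14.5% of all genes tested; of the genes high in the other 7 lines 7.65% were 2-fold lower and 1.83% higher. There is 1 sample on each side, so this difference has no replicate check.

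**Figure D3:**
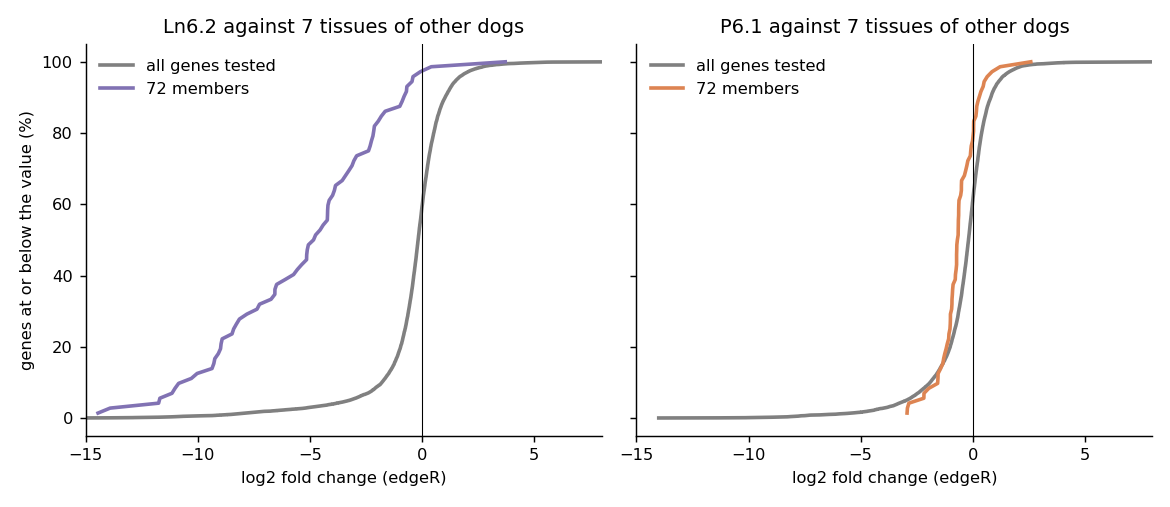
Share of genes (%) at or below a given edgeR log2 fold change, for Ln6.2 (left) and P6.1 (right) against the 7 tissues of other dogs; the colored line holds the 72 members and the grey line all genes tested. The members' line for Ln6.2 runs far to the left of the grey line, with a median of −4.79 beside −0.18, while the lines for P6.1 lie close together at −0.68 and −0.20.

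MAL2 (ENSCAFG00000000839), a membrane protein that carries cargo across polarized epithelial cells, was the clearest case among the named genes. Each of the 3 libraries of TCC1509 held a single MAL2 read, which gave 0.0577 CPM over the line. The other 7 lines ranged from 48.5 CPM in TCC1506 through a median of 84.03 to 132 CPM in Adcarc0846. That median was 1456 times the TCC1509 value, a ratio that the rule itself made large. Its 95% counting interval of 498 to 7060 covers read counting in TCC1509 alone, not the choice of the gene or the spread between lines. P6.1 had 14.9 CPM from 270 reads and Ln6.2 0.0628 CPM from 1 read. The other tissues were B7 at 49.1, B8 at 45.3, B9 at 45.2, B10 at 13.2, P2 at 0.715, Ln4.2 at 47.8 and Ln4.3 at 73.5 CPM. Ln6.2 and P2 were therefore both at trace levels and apart from the other 7 tissues, while P6.1 was close to B10. The log2 fold change of Ln6.2 was −8.91 ± 2.81 (SE) by edgeR, with an unadjusted p of 0.0123 and an adjusted p of 0.908. By DESeq2 it was −9.07 with an adjusted p of 0.00173, which made MAL2 the 1 named member called.

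HOOK1 (ENSCAFG00000018875), an adaptor that links endosomal cargo to microtubule motors, was lower in 8 of 9 tissues than in any line that kept it. TCC1509 had 0.712 CPM from 37 reads, with 0.5 to 0.852 CPM in single libraries, and the other lines ranged from 12.4 through a median of 22.5 to 35.7 CPM. In tissues it was at 4.7 CPM in P6.1 and 2.07 CPM in Ln6.2, and the tissues of other dogs ran from 2.63 in B8 through a median of 6.74 to 18.8 in B7. Ln6.2 was the lowest tissue but lay next to B8 and P2 (3.08 CPM). Its log2 fold change of −1.64 ± 1.14 (SE) had an adjusted p of 0.999 by edgeR. P6.1 was nearer to TCC1509 for HOOK1 than for any other named member, at 6.6 times its level.

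CDC42BPG (ENSCAFG00000014161), a kinase that binds the GTPase Cdc42 and acts on the actin cortex, had 0.635 CPM in TCC1509 from 33 reads. Its other lines ranged from 73.8 through a median of 111 to 149 CPM. P6.1 had 59.6 CPM and Ln6.2 9.74 CPM, and the tissues of other dogs ran from 14.7 in P2 through a median of 85.7 to 164 in B10. Ln6.2 lay below all 7 and P2 was next to it. The fold change of Ln6.2 was −3.04 ± 1.20 (SE) on the log2 scale, with an unadjusted p of 0.0339, an adjusted p of 0.999 by edgeR and an adjusted p of 0.083 by DESeq2.

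ARFGEF3 (ENSCAFG00000000272), of the family of exchange factors for ARF GTPases, showed a like order of tissues with a wider range. TCC1509 held 3 reads in 51976428 (0.0577 CPM), with none at passage 77, and the other lines ranged from 20.7 through 30.6 to 37.2 CPM. In single libraries Adcarc1511.1 went down to 6.59 CPM, below the limit that its sum met. P6.1 had 17.9 CPM and Ln6.2 2.7 CPM. B8, B9 and B10 were at 83.4, 149 and 114 CPM, above every cell line, while B7, Ln4.2 and Ln4.3 were at 20.01, 21.3 and 21.5 CPM and P2 was at 3.79 CPM. The fold change of Ln6.2 was −4.21 ± 2.10 (SE), with an adjusted p of 0.999 by edgeR and 0.139 by DESeq2.

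IQGAP2 (ENSCAFG00000009293), a scaffold that binds Cdc42, Rac and actin, was at trace level in the line but not in either tissue of its dog. TCC1509 had 0.308 CPM from 16 reads, and the other lines ranged from 28.7 in Adcarc1508 through 69.7 to 122 CPM in Metadcarc1511.2. P6.1 had 72.5 CPM and Ln6.2 33.6 CPM, both inside the range of the tissues of other dogs, which ran from 26.1 in B10 through 60.2 to 201 in B9. The fold change of Ln6.2 was −0.99 ± 0.98 (SE) and that of P6.1 0.04 ± 0.90 (SE), with adjusted p-values of 0.999 and 1.0 by edgeR. The sign for P6.1 turned with the reference tissues used, down to −0.15 with the 4 TCCs alone.

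TNK1 (ENSCAFG00000016280), a non-receptor tyrosine kinase, had 1 read in each library of TCC1509. The other lines ranged from 21.07 through 31.4 to 52.06 CPM. P6.1 had 19.4 CPM and Ln6.2 4.33 CPM, and the tissues of other dogs ran from 3.22 in P2 through 18.2 to 54.3 in B7. Ln6.2 and P2 were again the lowest tissues, here with P2 below Ln6.2. The fold change of Ln6.2 was −2.15 ± 1.26 (SE), with an adjusted p of 0.999 by edgeR and 0.568 by DESeq2.

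RGS19 (ENSCAFG00000030747), which speeds the shut-off of heterotrimeric G proteins, went another way in the tissues. TCC1509 had 0.173 CPM from 9 reads, and the other lines ranged from 10.02 in TCC1506 through 23.2 to 32.4 CPM. P6.1 had 10.9 CPM and Ln6.2 19.4 CPM. P2, Ln4.2 and Ln4.3 were at 58.8, 38.7 and 53.6 CPM and B7, B8, B9 and B10 at 24.2, 4.69, 8.7 and 18.04 CPM, so the 3 PAC tissues were above every TCC tissue. The fold change of Ln6.2 was −0.40 ± 1.22 (SE), with an adjusted p of 0.999 by edgeR, and it was 0.68 against the 4 TCCs of other dogs alone.

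PRDX4 (ENSCAFG00000013369), a peroxiredoxin of the endoplasmic reticulum, was the named member with the highest level in Ln6.2 relative to P6.1. TCC1509 had 0.0962 CPM from 5 reads, and the other lines ranged from 48.2 in TCC1506 through 60.9 to 137 CPM in Adcarc1511.1. Ln6.2 had 47.5 CPM, inside the range of the tissues of other dogs (26.3 in B9, median 57.98, 93.2 in B7), and P6.1 had 11.6 CPM, below all 7. The fold change of P6.1 was −2.19 ± 0.86 (SE), with an unadjusted p of 0.0337, an adjusted p of 1.0 by edgeR and 0.335 by DESeq2. That of Ln6.2 was −0.07 ± 0.72 (SE) and changed sign with the reference, to 0.19 against the 4 TCCs.

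**Figure D4:**
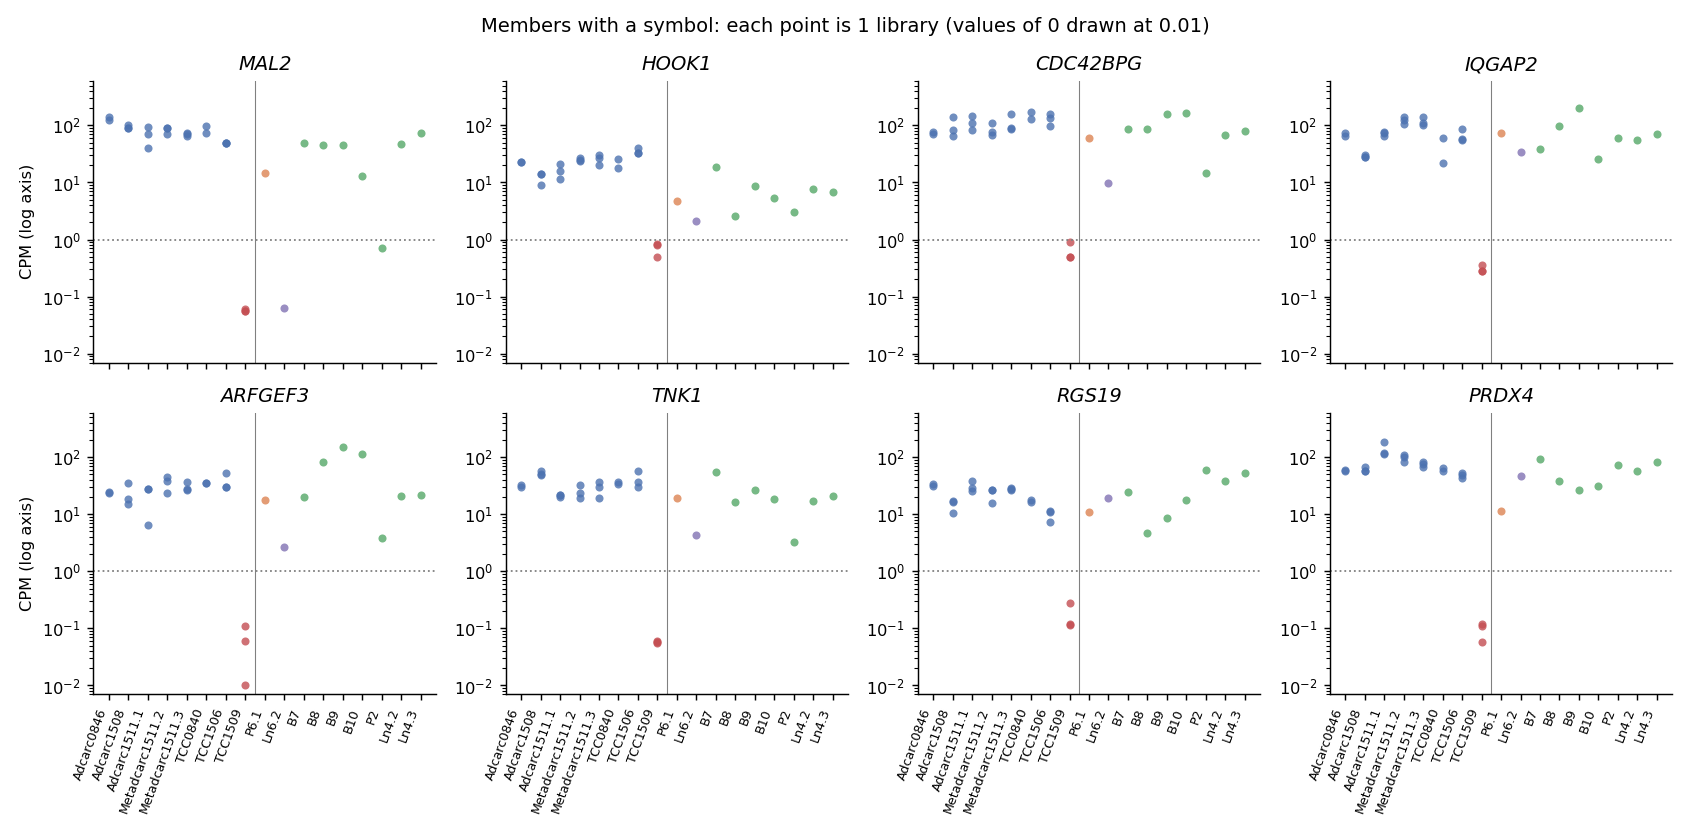
CPM (log axis) of the 8 members with a symbol in every library of the cell lines (left of the line) and in every tissue (right). TCC1509, in red, is under 1 CPM throughout, while the tissues differ by gene: MAL2 drops to trace levels in Ln6.2 and P2 alone, and IQGAP2, RGS19 and PRDX4 stay above 10 CPM in both.

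Levels can be set between genes only on the scale that divides by transcript length, the deposited TPM. On it the median of the other 7 lines was highest for MAL2 at 309 TPM, followed by PRDX4 at 121, CDC42BPG at 29.9, TNK1 at 24.7, IQGAP2 at 19.1, HOOK1 at 15.3, RGS19 at 12.9 and ARFGEF3 at 7.55 TPM. MAL2 and PRDX4 stood apart, with the lowest line at 188 and 100.3 TPM. The ranges of the other 6 overlapped in part: ARFGEF3 reached 9.04 TPM at most and CDC42BPG went down to 19.3 TPM. In TCC1509 the same genes lay between 0.0142 TPM for ARFGEF3 and 0.52 TPM for HOOK1.

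The level in Ln6.2 divided the 72 members, as a description, into 12 at 10 CPM or more, 27 from 1 to 10 CPM and 33 under 1 CPM. All 12 of the first set were also at 10 CPM or more in P2, beside 92.3% of the 7174 genes high in the other 7 lines. They lay between 24.7 and 294 CPM in P2. In Ln6.2, 8 were within the range of the tissues of other dogs, and 7 were above P6.1. The Ln6.2 level that picked the set also enters these last 2 counts. The set includes PRDX4, IQGAP2 and RGS19. The second set, with CDC42BPG, TNK1, ARFGEF3 and HOOK1, had a median of 2.76 CPM in Ln6.2, 6.29 CPM in P2 and 27.4 CPM in P6.1. The third, with MAL2, had a median of 0.188 CPM in Ln6.2, 1.86 CPM in P2 and 35.0 CPM in P6.1. In TCC1509 the medians were 0.173, 0.192 and 0.0962 CPM, so all 3 sets were at trace level in the line.

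A pair of members without a symbol mark the ends of this range and were picked for it after their values were seen. ENSCAFG00000029929 had no read in TCC1509, Ln6.2 or P2, which allows up to 0.0577, 0.188 and 0.215 CPM there. It had 138 CPM in P6.1, 343, 232, 153 and 147 CPM in B7, B8, B9 and B10, and 194 and 258 CPM in Ln4.2 and Ln4.3, and the other cell lines ranged from 107 to 837 CPM. This gene was at 0 or above 100 CPM in every sample. ENSCAFG00000006164 was the opposite: 0.327 CPM in TCC1509 but 1188 CPM in Ln6.2, beside 107 CPM in P6.1, 294 in P2, 189 in Ln4.2 and 203 in Ln4.3. It was at 1.67, 6.43, 1.99 and 36.07 CPM in B7, B8, B9 and B10. It was the 1 member that Ln6.2 held above all 7 tissues of other dogs, and it also varied most among the other lines, from 15.3 CPM in TCC0840 to 1425 CPM in TCC1506.

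The members were also compared between histological classes, in the 5 primary TCCs (B7 to B10 and P6.1) and the 3 PAC tissues (P2, Ln4.2 and Ln4.3). Ln4.2 and Ln4.3 are metastases and B7 to B10 are of the bladder. Class therefore cannot be told apart from organ or metastasis in this comparison. The median log2 fold change was 1.18 toward TCC, beside 0.19 over all genes, and 13 of 72 members were negative, beside 40.6% of all genes. Ln4.2 and Ln4.3 come from 1 dog, so the PAC side holds 2 dogs and the p-values treat its 3 tissues as independent. By edgeR 1 member was higher in TCC and 0 lower at an adjusted p of at most 0.05, beside 0.991% and 3.58% of the 14231 genes tested, and 15 and 3 were so at an unadjusted p under 0.05, beside 11.4% and 12.7%. By DESeq2 11 members were higher, ARFGEF3 among them, beside 6.59% of all genes. RGS19 was among the 2 lower, beside 9.94%. For ARFGEF3 the fold change was 2.32 ± 0.86 (SE) with an adjusted p of 0.145 by edgeR and 0.0312 by DESeq2, and for RGS19 −1.88 ± 0.50 (SE) with 0.0668 and 0.00512. The count by edgeR went from 0 to 3 as single tissues were left out, and 0 members were called without B8, B9, B10, P2, Ln4.2 or Ln4.3. Without B7 it was 3. The calls over all genes moved as well. Those lower and higher in TCC were 0 and 0 without B8, 4 and 0 without B9, 16 and 0 without Ln4.2, and 23 and 6 without P2. They were 307 and 31 without Ln4.3, 544 and 117 without B10, and 541 and 222 without B7. B9 was the highest of the 9 tissues for 30 members, beside 18.4% of the genes high in the other 7 lines, and P6.1 for 1.

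Matrix markers were high in the tissues with low values, though not in these alone. The leukocyte sum was near the top of the other tissues' range in P2 but not in Ln6.2. The sum over 13 fibroblast and matrix genes, all of which were found, was 56740 CPM in Ln6.2, 102800 in P2, 66460 in Ln4.2 and 10350 in Ln4.3, beside 5635 in P6.1 and 1191 to 1976 in B7 to B10. None of the 13 was at 0 in a tissue. Ln4.2 had a higher sum than Ln6.2 and a median of 41.0 CPM over the members. The sum over 17 of 19 leukocyte genes was 2589 CPM in Ln6.2 and 5909 in P2, inside the 245 to 6023 CPM of the others. The endothelial sum, over 6 of 7 genes, was 520 CPM in Ln6.2 and 1826 in P2, beside 79.6 to 1119 CPM. Only ACTA2 was found of the smooth muscle genes, with 426 CPM in Ln6.2 and 874 in P2, beside 12.8 to 296 CPM.

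The epithelial list was the one with a member on it. The sum over 17 of 27 adhesion and junction genes, MAL2 among them, was 1718 CPM in Ln6.2 and 573 in P2, and 2731 to 7800 CPM in the other 7 tissues. None was at 0 in Ln6.2, but 6 of the 17 were under 10 CPM there, among them OCLN at 1.32, LAMB3 at 3.51 and PERP at 3.71 CPM, and 9 were so in P2. EPCAM was at 11.7 CPM in Ln6.2, JUP at 187 and ITGA3 at 525 CPM. By DESeq2 6 of the 17 were lower in Ln6.2 than in the tissues of other dogs and by edgeR 0, with 5 at an unadjusted p under 0.05. Their median log2 fold change was −2.27, beside −4.79 for the 72 members. The part of these cell types in the low values of Ln6.2 and P2 was not tested.

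The matrix sum was higher in TCC1509 than in the other lines, but it rested on a few genes. The 13 matrix genes summed to 1119 CPM in it, mostly from COL3A1 at 577 and DCN at 419 CPM, and to 32.2 to 263 CPM in the other 7. In TCC1509 6 of the 13 were under 1 CPM. LOX, at 4.4 CPM, was below every other line but TCC0840, and FBLN1, at 6.16 CPM, below every other line but TCC1506. The leukocyte genes summed to 9.21 CPM in TCC1509 and to 5.56 to 301 CPM in the others. In the cell lines the same adhesion list summed to 3675 CPM in TCC1509 and 5508 to 9159 CPM in the other 7. TCC1509 was the lowest line for 13 of the 17 genes, and the same share over all genes was not computed. Yet 15 were still at 10 CPM or more there. MAL2 was the 1 under 1 CPM, and the rule set both this and its place among the 13. EPCAM, the general epithelial adhesion molecule, was at 26.6 CPM, JUP, which encodes plakoglobin of the junctions, at 326 CPM, and the integrins ITGA3 and ITGA6 were at 1591 and 632 CPM. Of 5 epithelial transcription and splicing factors found of 14, 3 were under 1 CPM in TCC1509, as in Adcarc1511.1, Metadcarc1511.2 and Metadcarc1511.3. In Ln6.2 2 were under 1 CPM, with OVOL2 at 0, and DESeq2 called 1 lower there. Of the keratin and cell envelope list, KRT80 and TGM1 were found of 9, and neither was called in Ln6.2. SNAI2, which represses epithelial genes, was the 1 found of 8 mesenchymal genes. It was at 120 CPM in TCC1509, 140 in Ln6.2 and 121 in P6.1. The other lines ran from 0.842 CPM in Adcarc0846 to 117 in TCC1506. Tissues of other dogs ran from 12.7 CPM in Ln4.3 to 106 in B7, with P2 at 72.7. A link between SNAI2 and the members was not tested.

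**Figure D5:**
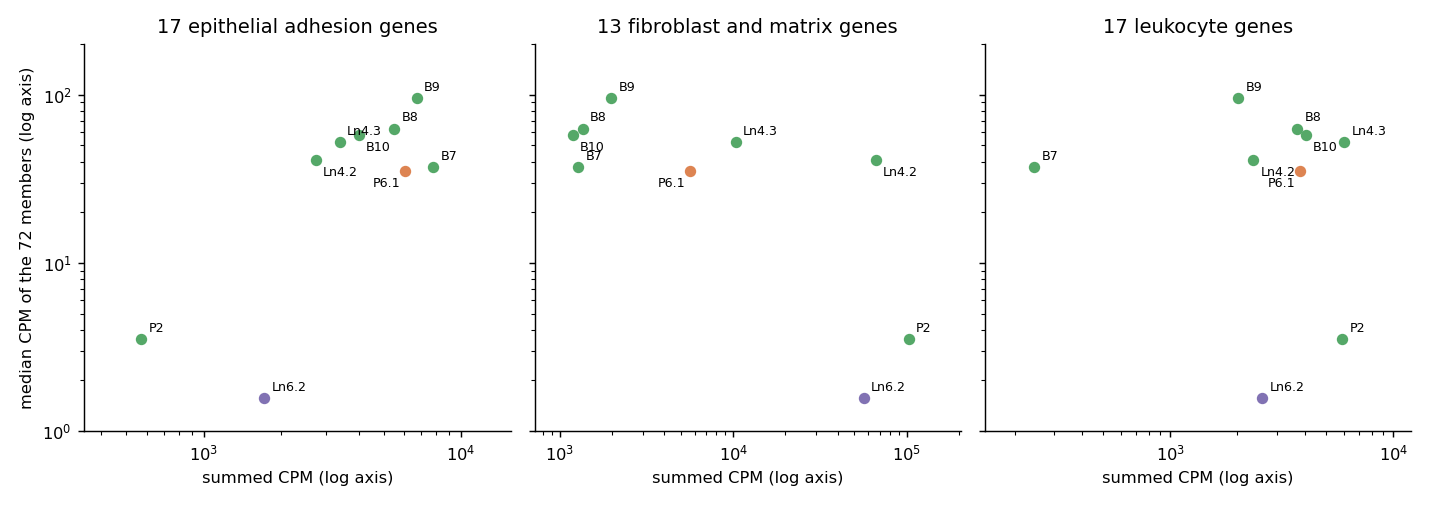
Median CPM of the 72 members against the summed CPM of 3 marker lists in the 9 tissues, on log axes. Ln6.2 and P2 have the lowest members' medians (1.57 and 3.54 CPM) and the lowest epithelial sums, and Ln4.2 combines a high matrix sum with a median of 41.0 CPM.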

How the data were processed

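RNA-seq of 8 cell lines (2 or 3 libraries each) and 9 tissues (1 library each), 31 libraries of 4 lanes, was used. The authors trimmed reads with Trimmomatic 0.36, aligned them with STAR 2.5.3 to the CanFam assembly of the dog with Ensembl genes, and quantified them with RSEM 1.3.0. The expected counts deposited by the authors are estimates that share multi-mapped reads among genes, and 21.6% of library values above 0 were not whole; near-identical genes are uncertain to that extent. The TPM values deposited by the authors were used only for levels between genes and as an alternative. How libraries were stranded is not given in the sources used here.

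Counts were summed over lanes, and over libraries of a line, and divided by the total to give CPM. Counting errors cover reads only, not molecules. Tissue counts were rounded and tested with edgeR 4.0.16 (quasi-likelihood F test, TMM) in R 4.3.3, for genes with a mean of 1 CPM or more, in 1 fit with Ln6.2, P6.1 and the 7 other tissues as levels; primary TCC and PAC tissues were tested in a fit of their own. The scripts were tested on simulated data. The threshold for a call was 0.05 after adjustment by Benjamini and Hochberg's method over all genes tested. Log2 fold changes are edgeR's unless DESeq2 is named. Alternatives were DESeq2 1.42.0 (the authors' own tool), RLE factors, other filters, reference tissues and limits, the study's threshold (adjusted p of 0.01 and 2-fold), and leaving out single tissues or libraries.

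The study's methods describe technical triplicates of the lines, so p-values between lines would measure technical and passage spread, and none was computed. Every member with a symbol in the study's additional files or legends was named (1120 genes of the table have one), with at most 2 identifiers of members without. The members, limits and marker lists were chosen with earlier results of these data known. A genome, promoter or protein sequence was not used here, so positions and promoter motifs were not analysed.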

Additional observations from a re-analysis of the deposited data

Results flagged for a closer look

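A sample far from the others was looked for in 10 sets of the members' values over the 7 tissues of other dogs, by the gap of the highest or lowest sample over the range (Dixon's test), and 2 were found; chance gives about 1 in 20. IQGAP2 was at 201 CPM in B9, with the next of the 7 tissues of other dogs at 99.4 CPM. HOOK1 was at 18.8 CPM in B7, with the next at 8.7 CPM.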

How the results depend on the processing

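Each tissue of patient 6 is 1 sample, and the 7 other tissues mix 3 histological classes and include 2 of 1 dog. Depth limits values under 0.188 CPM in Ln6.2 (3 counts). The number of genes that met the limits (72) became 110 with 5 CPM and 42 with 20 CPM in the other lines. It was 71 to 76 without a library of TCC1509, and 48 when every library had to meet the limits. Members called lower in Ln6.2 rose from 0 to 40 with DESeq2 and to 9 with the 4 TCCs as reference; over all genes these 2 settings called 204 and 25 lower. The tests' models of the spread were not compared further, and the cause was not tested. Members called between TCC and PAC went from 1 to 13 with DESeq2, to 0 at the study's threshold, and from 0 to 3 as tissues were left out. Over all genes the same omissions gave from 0 to 577 called lower in TCC and from 0 to 222 higher. Members under 1 CPM in P6.1 went from 1 to 2 with TPM. The median log2 fold change in Ln6.2 stayed between −5.20 and −4.62 and that in P6.1 between −1.01 and −0.56.

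Signs turned for fold changes near 0. IQGAP2 in P6.1 (0.04) became −0.00032 without the filter and −0.15 against the 4 TCCs, and ran from −0.12 (without B10) to 0.43 with single tissues left out, with −0.080, −0.015 and −0.030 without B7, P2 and Ln4.2. PRDX4 in Ln6.2 became 0.19 and RGS19 0.68 against the 4 TCCs. With single tissues left out, PRDX4 in Ln6.2 ran from −0.21 to 0.082 (0.037 without Ln4.3) and TNK1 in P6.1 from −0.27 to 0.32. Among the alternative values for single genes, 11 changed sign and 180 kept sign and side of the threshold, and MAL2 in Ln6.2 was called by DESeq2 alone. No paired analysis was possible because the comparisons were between tissues, which carry no replicate numbers and have 1 library each. Lines were not tested against the tissues of their dogs, since the lines' values chose the genes.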
